A study of Mus musculus with 6 samples.

Results

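Agr3, Agr2, Pld5, Prss35, Prss23, Tecta and Otogl, 7 of the 20239 named genes measured, were followed in the sciatic nerve of mice that lack Zeb2 in Schwann cells. The genes had been put together, as strongly raised transcripts without a known role in nerve, chosen by the difference between mutant and control log2 values in these same data. Their values in that comparison are therefore given as a description, with no test. Total RNA of whole sciatic nerve from 3 mice per group, all 25 days old, was hybridised to Affymetrix arrays, 1 for each mouse. The mutant mice carried DhhCre and Sip1 flox/flox, and the control mice carried Sip1 flox/flox without the Cre. Sip1 is an older name of Zeb2. DhhCre expresses Cre recombinase from the promoter of Desert hedgehog, which is active in the Schwann cell lineage, so other cells of the nerve keep the gene as far as the promoter is silent in them.

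The 7 genes belong to families best known outside the nerve. AGR2 and AGR3 are small members of the protein disulfide isomerase family, enzymes and chaperones that help proteins fold in the endoplasmic reticulum. AGR2 is known from mucus-secreting goblet cells, and AGR3 from ciliated airway cells. PLD5 is a relative of the phospholipases D, enzymes that cut phosphatidylcholine, and is regarded as catalytically inactive. PRSS23 and PRSS35 are related secreted proteins with a trypsin-like serine protease fold. Alpha-tectorin, the product of Tecta, is a main non-collagenous protein of the tectorial membrane of the cochlea, and otogelin-like, the product of Otogl, is a large secreted protein of the same extracellular gels. ZEB2 is a zinc finger transcription factor that binds the letters CACCTG in DNA, and it is known in Schwann cells as a factor needed for myelination.

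The bases before the annotated starts of Agr3 and Agr2, which lie next to each other on the same chromosome, are shown because these genes differed most in behaviour among related members. They run 5′ to 3′ on the plus strand, in RefSeq's annotation of build GRCm38.p6, at chr12:35925371-35925620 for Agr3 and chr12:35992675-35992924 for Agr2, and capitals mark CACCTG or its reverse complement CAGGTG.
Agr3: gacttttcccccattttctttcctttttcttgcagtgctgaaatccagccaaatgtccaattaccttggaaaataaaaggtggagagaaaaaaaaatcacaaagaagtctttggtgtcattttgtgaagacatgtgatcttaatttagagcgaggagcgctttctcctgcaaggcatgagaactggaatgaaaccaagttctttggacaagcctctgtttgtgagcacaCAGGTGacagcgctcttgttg
Agr2: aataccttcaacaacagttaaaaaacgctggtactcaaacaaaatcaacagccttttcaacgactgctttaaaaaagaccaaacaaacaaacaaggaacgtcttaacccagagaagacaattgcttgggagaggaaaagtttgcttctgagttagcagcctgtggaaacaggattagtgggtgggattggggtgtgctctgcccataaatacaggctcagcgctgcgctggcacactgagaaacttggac
The Agr3 sequence holds 1 match, which begins 21 bases before the start. In the window of 300 bases, from 250 before to 50 after the start, Agr3 has 2 further matches, which begin at bases 6 and 23 of the transcript. The Agr2 window has none. Of all 32851 promoter windows of that length in the table, 20.2% held at least 1 match on either strand, 2.88% at least 2 and 0.365% at least 3.

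Windows were matched for 6 members, Agr3, Agr2, Pld5, Prss35, Prss23 and Tecta. No CACCTG or CAGGTG was found in the windows of Pld5 (1 window), Prss35 (1) or Tecta (2). Of the 7 alternative starts of Prss23, 5 had a match, and these windows overlap, so that only 3 separate sites were found. They are printed with 12 bases on each side, on the minus strand, at chr7:89518320-89518349, chr7:89517737-89517766 and chr7:89517480-89517509.
Prss23 site 1: gactcagtccccCAGGTGtggacttctcca
Prss23 site 2: gctgcggagaccCACCTGcgcggggcccga
Prss23 site 3: tccgggcgcccaCACCTGtctgagcggcgc
A match describes the letters in the window, and binding of ZEB2 was not measured.

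Zeb2, the targeted gene, fell in the mutants. Mutants 1 to 3 stood at 10.96, 10.66 and 11.01 on the log2 scale, and controls 1 to 3 at 11.67, 11.57 and 12.02 (difference −0.88, SE 0.15, limma adjusted p = 0.0137, and 0.0522 without mutant 1). Which part of the gene is floxed and where its probes lie are not given in the labels, so the value checks the labels only in direction. Of 10 Schwann cell markers 7 were measured, and all 7 lay above the array background described below in the 3 controls. In the mutants they did too, except Mag, which lay within it in mutant 2 (6.95). Other tissue was present in unequal amounts. A muscle score, the average over 18 markers of skeletal muscle on the log2 scale, came to 7.64, 12.66 and 10.14 for mutants 1 to 3. The controls had 7.74, 12.71 and 10.59, so that mutant 2 and control 2 were rich in muscle. The same average over 12 adipocyte markers was between 10.08 and 10.96 in the mutants and between 9.74 and 12.10 in the controls. By Xist and Uty, 2 mutants and 1 control were male. Whole nerves were used, so a change in the number of cells of a type and a change of RNA per cell cannot be told apart.

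Of the 7 genes, 6 had all 3 mutant values above all 3 control values, as had 16.3% of all genes, and 5 were higher by at least 2 on the log2 scale, as were 0.287% of all genes. These counts follow from how the genes were chosen. Agr2 went against the description of the group, and Prss23 differed by much less than the others.

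Agr3 had the largest difference of the 7. Its log2 values were 9.72, 9.04 and 10.30 in mutants 1 to 3, against 5.20, 4.94 and 5.23 in controls 1 to 3. The groups lay far apart, and the closest mutant and control values differed by 3.81. The group means were 9.69 ± 0.63 and 5.12 ± 0.16 (SD, n = 3 each), a difference of 4.57 (SE 0.30) or 23.7-fold, the second largest rise in rank among all genes. The mutants varied among themselves by 1.26 and the controls by 0.28.

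Agr2, the neighbour and close relative of Agr3, showed no such difference. It stood at 6.83, 6.93 and 6.59 in mutants 1 to 3 and at 7.25, 6.88 and 7.01 in controls 1 to 3. The groups overlapped, since mutant 2 lay above control 2. The difference was −0.26 (SE 0.13), opposite in sign to that of Agr3, and it was −0.43, 0.05 and −0.42 between mice numbered 1, 2 and 3. The sensory receptor genes used below as array background also had a negative median difference, −0.15. In rank it stood at 17633 of the 20239 genes ordered from the largest rise to the largest fall.

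**Figure D1:**
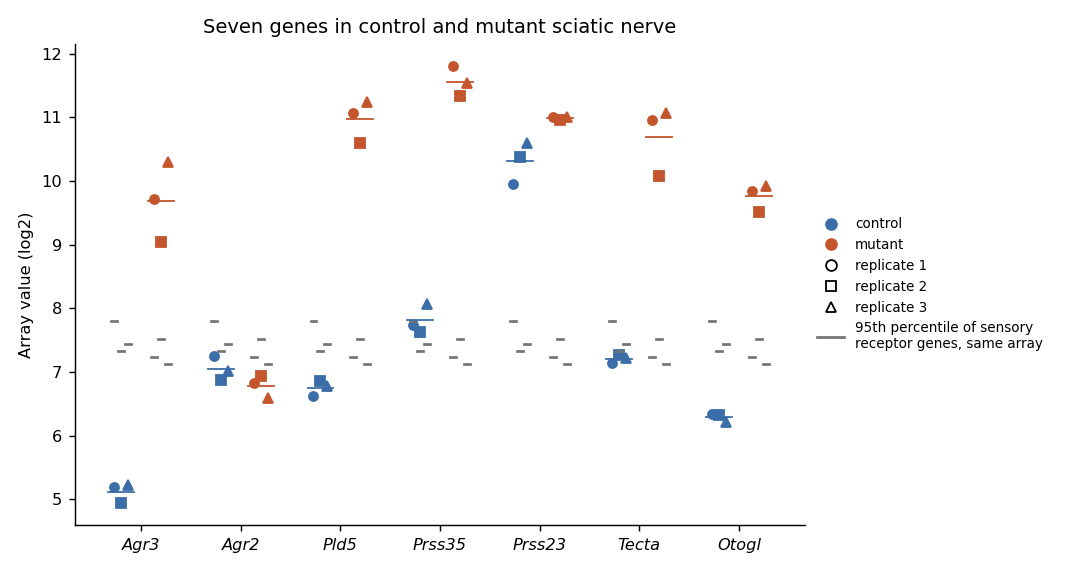
Log2 array values (vertical axis) of the 7 genes (horizontal axis) in each of the 3 control and 3 mutant nerves, with a coloured line at each group's mean and a grey dash at the 95th percentile of 1291 sensory receptor genes on the same array. Mutant values of Agr3, Pld5, Prss35, Tecta and Otogl stand far above their controls, those of Prss23 stand slightly above, and those of Agr2 overlap with the controls below the grey dashes.

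Pld5 was the member with the next largest difference. Mutants 1 to 3 stood at 11.07, 10.60 and 11.23 and controls 1 to 3 at 6.63, 6.86 and 6.78, without overlap. The difference was 4.21 (SE 0.17), or 18.6-fold. Controls varied by 0.23 and mutants by 0.64.

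The serine protease relatives differed unequally. Prss35 stood at 11.81, 11.33 and 11.54 in mutants 1 to 3 and at 7.74, 7.63 and 8.06 in controls 1 to 3, a difference of 3.75 (SE 0.16) or 13.4-fold. Prss23 stood at 11.00, 10.96 and 11.00 in the mutants and at 9.95, 10.38 and 10.59 in the controls, a difference of 0.68 (SE 0.16) or 1.60-fold. Both had every mutant value above every control value. The smallest gap between a mutant and a control was 3.27 for Prss35 and 0.37 for Prss23. The 3 mutants lay within 0.05 of each other for Prss23, while its controls spread over 0.64. Prss23 was 774th in rank among all rises.

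The genes of inner ear gels differed by nearly the same amount. Tecta stood at 10.95, 10.08 and 11.06 in mutants 1 to 3 and at 7.15, 7.27 and 7.21 in controls 1 to 3, a difference of 3.49 (SE 0.25) or 11.2-fold. Otogl stood at 9.84, 9.52 and 9.92 in the mutants and at 6.33, 6.32 and 6.22 in the controls, a difference of 3.47 (SE 0.12) or 11.0-fold. Neither gene's groups overlapped. Controls were close together, within 0.12 for Tecta and 0.11 for Otogl, and the mutants of Tecta spread over 0.99, because mutant 2 lay below the other two.

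Mutant 2 had the lowest mutant value in 6 of the 7 genes, all except Agr2, and mutant 3 the highest in 5. Mutant 2 was the mutant with the highest muscle score, 12.66. Control 2, with a muscle score of 12.71, was the lowest control for 3 of the 7 genes. Control 1, with a score of 7.74, was also the lowest for 3. The part of muscle in the values was not tested. Without mutant 2 and control 2, the arrays with the highest muscle scores, the differences were 4.80 for Agr3, 4.45 for Pld5, 3.77 for Prss35, 0.73 for Prss23, 3.83 for Tecta and 3.60 for Otogl, and −0.42 for Agr2. Within sex, the 6 genes other than Agr2 were higher in mutants of both sexes, which had to follow because their groups did not overlap. Agr3 differed by 5.23 in females (1 mutant, 2 controls) and by 4.15 in males (2 mutants, 1 control), and Prss23 by 0.84 and 0.39. The male mutants included mutant 2, rich in muscle, so sex and muscle cannot be told apart in these differences.

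How far the control values stood above the array background was judged from 1291 olfactory and vomeronasal receptor genes, which are taken here as not transcribed in nerve. Their median log2 value was between 5.43 and 5.86 on the control arrays and between 5.31 and 5.57 on the mutant arrays. Their 95th percentile stood at 7.81, 7.32 and 7.43 in controls 1 to 3 and at 7.24, 7.52 and 7.12 in mutants 1 to 3. Control 1 had the highest background of the 6 arrays.

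In the control nerves, 5 of the 7 genes lay within that background on all 3 arrays. Agr3 exceeded 29.4% to 39.7% of the receptor genes, Otogl 63.3% to 77.2%, Pld5 71.9% to 88.9%, Tecta 85.2% to 94.3% and Agr2 86.8% to 89.5%. Transcripts of these genes were thus not distinguishable from background in the controls, and because background compresses a difference from below, the fold values given for Agr3, Otogl, Pld5 and Tecta can understate the true ratio. Prss35 exceeded 94.0% of the receptor genes in control 1, 97.7% in control 2 and more in control 3, so it stood at the edge of the background. Prss23 exceeded 99.8% to 99.9%, and was well above background in every nerve.

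In the mutant nerves the order changed. Agr3 exceeded at least 99.5% of the receptor genes, Otogl 99.8% to 99.9%, and Pld5, Prss35, Prss23 and Tecta at least 99.9%. Agr2 alone among the 7 stayed within the background on the mutant arrays too. It exceeded 86.8% to 89.7% of the receptor genes on all 6 arrays, and was highest on control 1, the array with the highest background.

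Genes with the most similar profile were found from the root mean square difference over the 6 arrays, each profile taken relative to its control mean. Since every profile is set mostly by the step between the groups, this likeness describes size and spread and carries no test. Closest to Agr3 were Ptprz1, a receptor tyrosine phosphatase (root mean square difference 0.21 on the log2 scale), then Pld5 (0.34) and Gfap (0.36), a filament protein of nonmyelinating Schwann cells and astrocytes. Ptprz1 was also closest to Pld5 (0.20), ahead of the small leucine-rich proteoglycan Epyc (0.23) and Gfap (0.30). The ferric reductase Cybrd1 was closest to Prss35 (0.19), Tecta (0.18) and Otogl (0.16). Epyc (0.21) and Otogl (0.28) followed for Prss35, Otogl (0.20) and the hedgehog-binding protein Hhip (0.26) for Tecta, and Tecta (0.20) and the elongase Elovl2 (0.24) for Otogl.

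Agr2 and Prss23 had other companions. Closest to Agr2 were the vomeronasal receptor Vmn1r85 (0.019), Pate1 (0.024) and the protease gene Tmprss11g (0.037). Vmn1r85 is one of the receptor genes that served as background. Closest to Prss23 were Ankrd28 (0.072), Irf2bpl (0.074) and the pseudokinase Trib2 (0.10), and all 3 shared its low value in control 1.

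**Figure D2:**
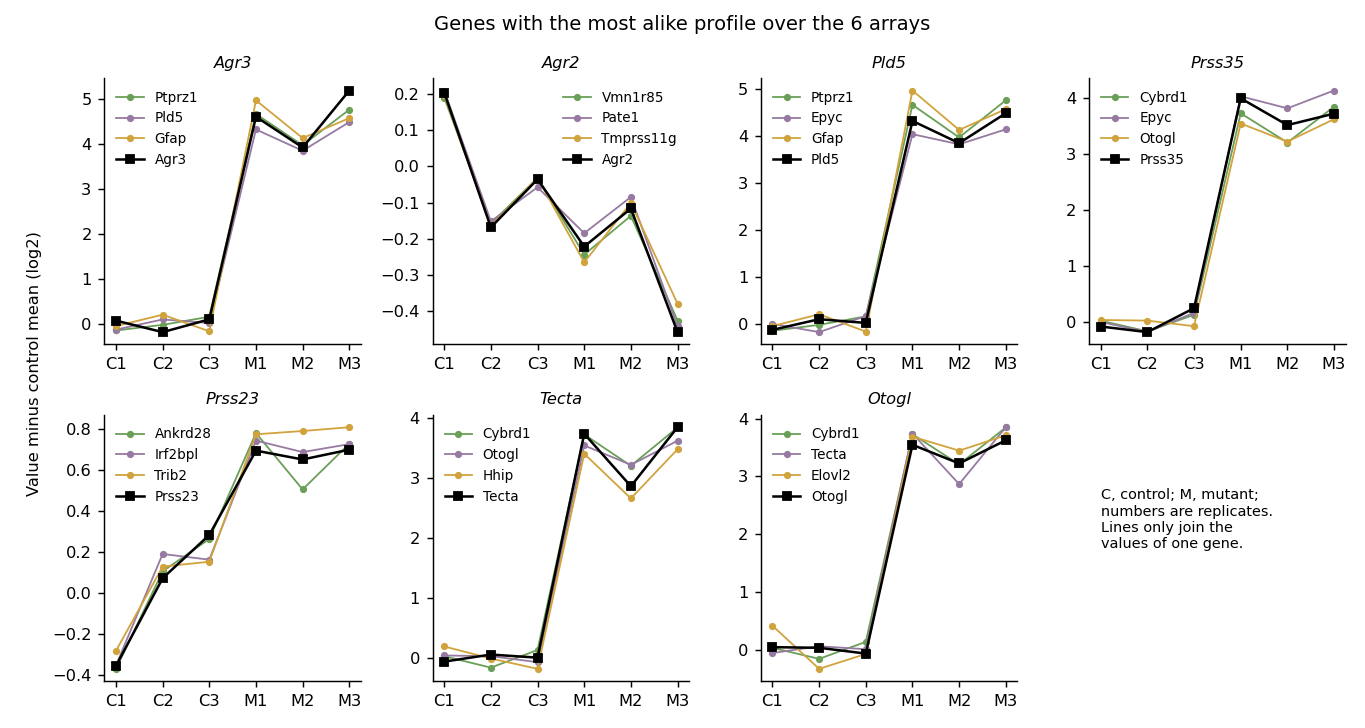
Log2 values minus the control mean (vertical axis) on the 6 arrays (C1 to C3 controls, M1 to M3 mutants) for each of the 7 genes (black) and the 3 genes with the most alike profile (colours), on scales that differ between panels. Profiles of Agr3, Pld5, Prss35, Tecta and Otogl step up in all 3 mutants with a dip in mutant 2, and that of Agr2 follows a vomeronasal receptor gene within 0.5 of its control mean.

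Most of the nearest measured genes on the chromosome did not pass the test. Of 24 neighbours, taken as the 2 nearest measured genes on each side, 1 rose, 2 fell and 21 did not pass the test. That is 12.5% called against 9.62% of all genes (5.74% higher and 3.89% lower), and the median difference was 0.02 against −0.02 for all genes. Around Agr3 and Agr2, Ahr, the aryl hydrocarbon receptor, fell (−0.65, SE 0.12, limma adjusted p = 0.0191), and Tspan13 did not pass (−0.32, adjusted p = 0.0734). The fall of Ahr did not hold when mutant 1 (adjusted p = 0.0628), mutant 3 (0.0709), control 2 (0.0509) or both mutant 2 and control 2 (0.0915) were left out. None of the 4 neighbours of Pld5, of Prss35 or of Prss23 passed.

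Beside Tecta lies Sc5d, a desaturase of cholesterol synthesis, which moved the other way. It stood at 10.45, 10.25 and 10.32 in mutants 1 to 3 and at 12.03, 11.99 and 12.34 in controls 1 to 3, without overlap (−1.78, SE 0.12, limma adjusted p = 0.000441). On the far side of Otogl from Myf6, Pawr rose (0.71, SE 0.077, adjusted p = 0.00255), and Ppp1r12a, which lies between them, did not pass (0.41, adjusted p = 0.0525). The neighbours that rose numbered 1 in all fits that left out 1 sample except those without mutant 2 and without control 3, where they were 2, and 4 with array weights.

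**Figure D3:**
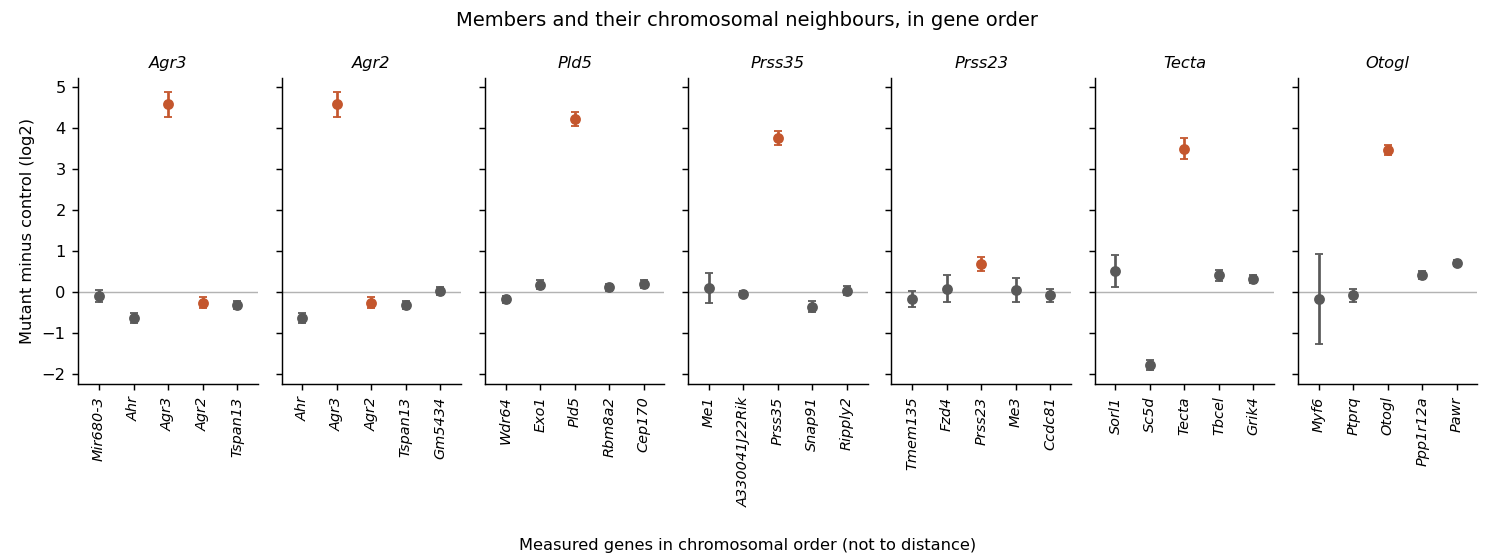
Mutant minus control log2 difference (vertical axis, bars are standard errors) for each of the 7 genes (orange) and the 2 nearest measured genes on each side (grey), in chromosomal order and not to distance. Agr2 lies near 0 beside Agr3, Pawr near Otogl lies at 0.71, and Sc5d beside Tecta lies at −1.78.

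Relatives of the 7 genes were tested as lists drawn up by their relation to the members. Earlier results of these data were known when the lists were chosen. Of 86 measured relatives 10 rose, 3 fell and 73 did not pass the limma test, 15.1% called against 9.62% of all genes. Their median difference was −0.03 against −0.02 for all genes. The rises numbered 4 without mutant 1, mutant 3 or control 2, 6 without control 1 or control 3, and 17 with array weights. With the replicate number as a block 9 rose and 1 fell, and the fall of Prss12 was the one left when any single sample was left out.

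Some relatives of Agr3 rose by small amounts. Of 18 other disulfide isomerases and relatives, 5 rose, none fell and 13 did not pass, 27.8% called against 9.62% of all genes. The median difference was 0.35. Those that rose were Pdia3 (0.56, SE 0.10, limma adjusted p = 0.0183), Pdia6 (0.53), Pdia5 (0.50), Txndc5 (0.49) and the archetype of the family, P4hb (0.35), all chaperones or isomerases of the endoplasmic reticulum. Txndc12, the third member of the anterior gradient subfamily, stood at 0.10 (adjusted p = 0.761). The largest of these differences, that of Pdia3, was 0.56, against 4.57 for Agr3. None of the 5 rises held without mutant 1 (adjusted p from 0.0954 to 0.162) or without mutant 3 (0.0901 to 0.157), 1 held without control 2 or control 3 and 2 held without control 1, while 8 genes of the family rose without mutant 2. The family's rises numbered 2 with sex as a covariate, 3 with arrays centred on their medians and 11 with array weights. With the replicate number as a block 4 rose, as P4hb (adjusted p = 0.086) and Pdia6 (0.0524) were lost and Dnajc10 (0.0456) was gained.

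Genes of the folding machinery and its stress sensors, with which AGR proteins work, were counted next. Of 21 measured, 3 rose, none fell and 18 did not pass, with a median of 0.25. That is 14.3% called against 9.62% of all genes, and 3 of 21 lies near that share. Those that rose were Sdf2l1 (0.85, SE 0.16, limma adjusted p = 0.0178), the chaperone Hspa5 (0.55, adjusted p = 0.0183), also called BiP, and its partner Dnajb9 (0.48, adjusted p = 0.0464). Xbp1, a transcription factor of the unfolded protein response, stood at 0.26 (adjusted p = 0.389). None rose without mutant 1, control 2 or control 3, 1 rose without mutant 3, without control 1 or without mutant 2 and control 2, and 5 rose without mutant 2. With array weights 11 rose. With the replicate block Dnajb9 was lost (adjusted p = 0.065) and Hsp90b1 was gained (0.0465).

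Among the 5 other genes of the phospholipase D family, Pld1, a signalling enzyme that makes phosphatidic acid, rose by 0.77 (SE 0.14, limma adjusted p = 0.0156). The other 4 did not pass, with differences from −0.08 to 0.21. That is 20% called against 9.62% of all genes, and 1 of 5 lies near that share. The rise of Pld1 did not hold when mutant 1 (adjusted p = 0.0767), mutant 3 (0.0771) or control 2 (0.0501) was left out.

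Among 35 other Prss proteases 1 fell and none rose, 2.86% called against 9.62% of all genes. Of the 35, 25 lay within the array background on all 6 arrays. The gene that fell was Prss12, which encodes neurotrypsin, a protease of synapses. It stood at 8.48, 8.15 and 8.56 in mutants 1 to 3 and at 10.38, 10.63 and 11.19 in controls 1 to 3, without overlap. The difference was −2.34 (SE 0.22, limma adjusted p = 0.00152), opposite in direction to those of Prss35 and Prss23. The highest Prss difference apart from the members was 0.09.

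Of 18 other genes listed around inner ear gels 3 rose and none fell. That is 16.7% called against 9.62% of all genes, and 3 of 18 lies near that share. The list was broad, and some of its genes, such as Umod and Otop1, do not encode proteins of these gels. Of the 18, 8 lay within the background on all arrays. Col11a1, a fibrillar collagen of cartilage and of the tectorial membrane, stood at 11.59, 10.79 and 11.41 in mutants 1 to 3 and at 8.57, 8.65 and 8.81 in controls 1 to 3 (2.59, SE 0.21, 6.01-fold, limma adjusted p = 0.000845). Zpld1, a zona pellucida domain protein, rose by 1.02 (adjusted p = 0.0208) and Col9a3 by 0.72 (adjusted p = 0.0037). Zpld1 lay within the array background in all 3 controls and in mutants 1 and 2, and above it only in mutant 3 (7.52). Zpld1 was lost without control 1 (0.0509), control 2 (0.0689) or control 3 (0.0504), and without mutant 2 and control 2 (0.0984). The closest partners of the members did not share their difference. Tectb, the other tectorin, stood at −0.05 (adjusted p = 0.846) and Otog, the paralogue of Otogl, at 0.01 (0.963), both within the background on every array.

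Other secreted proteins with von Willebrand D domains, as Tecta and Otogl have, went both ways. Of 11 measured 1 rose and 2 fell, 27.3% called against 9.62% of all genes. Bmper, which binds bone morphogenetic proteins, rose by 1.39 (SE 0.18, limma adjusted p = 0.00514). Vwf, the von Willebrand factor of endothelium, fell by 0.43 (adjusted p = 0.0283) and Kcp fell by 0.41 (adjusted p = 0.0404). Both falls were lost with the replicate block (0.0592 and 0.0596) and when any 1 of the 6 samples was left out (0.0576 to 0.135).

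**Figure D4:**
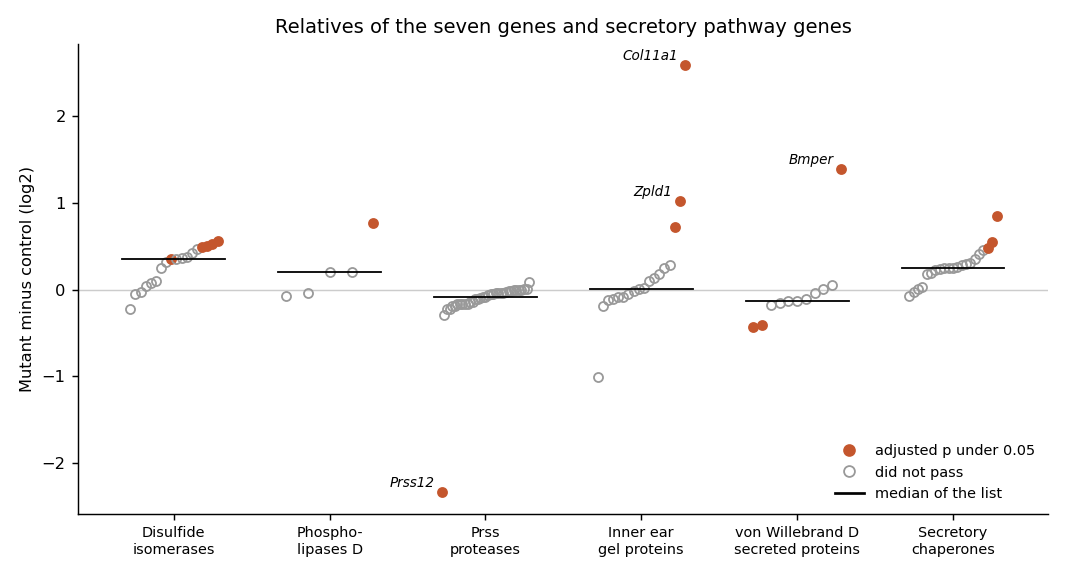
Mutant minus control log2 difference (vertical axis) of each measured gene in 5 lists of relatives and in the list of secretory chaperones, with filled points for genes at a limma adjusted p under 0.05, open points for the others and a line at each list's median. The medians of the disulfide isomerases and chaperones lie at 0.35 and 0.25, Prss12 stands lowest at −2.34, and Col11a1 stands highest at 2.59.

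Markers of the epithelia in which AGR2 and AGR3 are best known did not pass the test. Of 13 measured markers of mucus-secreting epithelium and 8 of multiciliated cells, none passed the limma test in either direction. Among all genes 9.62% passed, so none among 13 or among 8 lies near that share. At an unadjusted p under 0.05 the counts were 0 and 2. Of the 13 and the 8 markers, 9 and 6 lay within the array background on all 6 arrays, among them the mucin Muc2, the factor Foxa1 and the ciliary regulator Foxj1. The mean level of the mucus list was 6.797 to 6.996 in the mutants and 6.87 to 7.03 in the controls, and that of the ciliated list 6.84 to 6.89 and 6.78 to 6.90. Of 15 general epithelial markers, 1 rose and 1 fell (13.3% called), and 7 lay within the background, among them the adhesion molecule Epcam. Krt19 rose by 0.99 (adjusted p = 0.00254), and Cdh1, or E-cadherin, which Schwann cells also make, fell by 1.20 (adjusted p = 0.0111), a fall that was lost without mutant 2 and control 2 (0.0606).

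Markers of cells native to the nerve were counted in the same way. Called were 62.5% of the perineurial, 37.5% of the fibroblast, 71.4% of the Schwann cell and 0% of the macrophage markers, against 9.62% of all genes. The macrophage markers numbered 7, so none called lies near that share. Of 8 perineurial markers 5 rose and none fell, and their mean level was 11.16 to 11.33 in the mutants and 10.18 to 10.49 in the controls. Of 8 fibroblast markers 3 rose (12.41 to 12.65 against 11.96 to 12.30). Of the 7 Schwann cell markers 5 fell (10.28 to 10.66 against 11.80 to 12.28), with differences from −0.60 for Pmp22 to −4.89 for Mag. Mag weighed most in the mean level. Sox10, a regulator of Schwann cell identity (−0.74, limma adjusted p = 0.0639), and Cdh19 (0.03, adjusted p = 0.946) did not pass. None of 7 macrophage markers passed (8.72 to 9.04 against 8.53 to 8.78), with 2 at an unadjusted p under 0.05. With the replicate block Sox10 passed (limma adjusted p = 0.0136), which made the Schwann cell falls 6. Sox10 also passed with array weights (0.0303), with quantile normalization repeated (0.0492) and without the lowest 50% of genes (0.0461). With array weights 6 fibroblast and 3 macrophage markers rose. Without mutant 3 the perineurial rises numbered 2, the fibroblast rises 1 and the Schwann cell falls 3, and without mutant 1 they were 3, 1 and 4. The part of these cell types in the values of the 7 genes was not tested.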

How the data were processed

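The table that the authors deposited holds log2 values for gene-level probe sets, 1 column per mouse. The log base was inferred from the values. Per the submitters' processing notes limma was used, with no version named. Not given in the sources used here: background correction, normalization, summarisation and genome build. Array medians were 8.00 to 8.08 and arrays have no read depth, so the number of arrays limits precision.

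Of 21225 probe sets, 20239 had 1 symbol, through Entrez numbers and RefSeq's annotation of GRCm38.p6, and 986 had none. The model for every gene was mutant minus control, without a block (limma 3.58.1 under R 4.3.3, lmFit and eBayes, two-sided), with Benjamini-Hochberg adjustment over all named genes, and was called at an adjusted p under 0.05. The fit was tested only on simulated data with independent noise for each gene, which lacks the variation in muscle that these arrays share across genes. Groups came from the titles. The members, the lists and the alternatives were chosen with earlier results of these data known. Named genes were Zeb2, the members, up to 4 called genes per list or the one with the smallest p, called neighbours and the 3 nearest profiles, and other genes were singled out after their values were seen. Deviations from the group means correlated at 0.36, 0.574 and 0.295 between mice numbered 1, 2 and 3. Between mice of unlike number they correlated at −0.607 to 0.303, highest for mutant 1 and control 3. The 0.574 belongs to mutant 2 and control 2, both rich in muscle, and the titles do not say that mice were paired. The replicate number, which the titles give, was tried as a block. Alternatives changed filters, scaling, offset, prior, weights, block, sex and samples. Figures used matplotlib 3.10.9 and Python 3.11.15.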

Additional observations from a re-analysis of the deposited data

How the results depend on the processing

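With array weights the genes called numbered 2411 higher and 1244 lower (1161 and 787 without), the relatives 17 and 5, the secretory genes 11 higher and the neighbours 4 higher. The cause was not tested. Leaving out 1 sample gave 502 to 1397 higher and 392 to 744 lower genes, 4 to 13 higher relatives with 1 lower, 0 to 5 higher secretory genes with 0 lower, and 1 to 2 higher and 1 to 2 lower neighbours, with fewer samples in the fit. Without mutant 2 and control 2, 453 genes were lower, 1 relative was lower, 1 secretory gene was higher and 1 neighbour was lower. Under the replicate block 1 relative fell in place of 3, and no other count moved by over 1.5 times. The neighbours that rose were 2 without the lowest 25% of genes, with quantile normalization repeated, or with 16 added to the linear values. That addition lowered the differences of Agr3 to 4.05 and of Otogl to 3.22, as it compresses low values by construction, and moved the other members by less than the spread between mice. No member changed sign under any alternative. For the 6 members whose groups did not overlap, leaving out arrays could not have changed the sign. The genes had also been chosen by this difference. The members within background in all controls numbered 4 to 6 with other limits or background genes, against 5, with Tecta out at the 90th percentile and Prss35 in with keratin-associated and like genes. No detection calls were used, so signal over background limits Agr3, Agr2, Pld5, Tecta and Otogl in the controls.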
